A study of Homo sapiens with 2 samples.

Results

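KLF5 and the sites of MLL3 and GRHL2 around it were described in KYSE510, an established line of esophageal squamous cell carcinoma. Members were all regions of 2 lists from chromatin immunoprecipitation and sequencing (ChIP-seq) whose summit lay between 73300000 and 74300000 on chromosome 13 (build hg19). This stretch was set around KLF5 by position and not by a cut on a measured value, but with earlier results of these data known. KLF5 itself was taken to lie at 73629 to 73652 kb on the forward strand, and distances below run from that start, which is known to the kb. The stretch held 7 of the 12150 MLL3 regions and 28 of the 152864 GRHL2 regions on assembled chromosomes, 35 of 165014 in all. Chromosome 13 as a whole held 219 and 2830.

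One library of unperturbed cells was precipitated with an antibody against MLL3 (Millipore Sigma ABE1851) and another with an antibody against GRHL2 (Genetex GTX109410), both after formalin fixation and sonication. Each region was called against input DNA. There was 1 library per antibody, so nothing below carries an error between replicates, and no test between samples could be made. The fold enrichment, which is the ChIP signal at the summit over the local background, and the −log10 q are the authors' values and describe a region within its own list. The MLL3 list ends at a −log10 q of 2.07 and the GRHL2 list at an unadjusted p-value near 0.05, so many GRHL2 regions are weak and the sizes of the lists cannot be set against each other. Read depth is unknown.

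KLF5 is a zinc finger transcription factor of the Krüppel-like family, active in proliferating basal cells of stratified epithelia. In squamous carcinomas it works with TP63 and SOX2, and gains in copy number of enhancers far downstream of the gene have been described in several epithelial cancers. MLL3, the product of KMT2C, places the monomethyl mark on lysine 4 of histone H3 at enhancers. GRHL2 is a Grainyhead-like factor that binds DNA directly and keeps epithelial identity. In the gene order of RefSeq (GRCh38.p14) the protein-coding neighbours are PIBF1 before KLF5 and KLF12 after it. No hg19 annotation was used, so whether a distal site lies within a neighbouring gene is not stated.

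RefSeq gives KLF5 alternative start sites, 4029 bp apart in GRCh38. The 250 bases before each start are shown because both factors were listed within 2 kb of the start used here and GRHL2 alone further in. Capitals mark the GC box GGGCGG on either strand, the only one of the searched motifs found.
Upstream start, chr13:73054726-73054975 (GRCh38.p14, + strand): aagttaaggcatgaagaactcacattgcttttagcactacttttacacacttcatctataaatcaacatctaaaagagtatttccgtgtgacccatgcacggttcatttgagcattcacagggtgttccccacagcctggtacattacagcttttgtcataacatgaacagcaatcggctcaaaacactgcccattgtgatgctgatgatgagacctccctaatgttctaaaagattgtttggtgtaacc
Downstream start, chr13:73058755-73059004 (GRCh38.p14, + strand): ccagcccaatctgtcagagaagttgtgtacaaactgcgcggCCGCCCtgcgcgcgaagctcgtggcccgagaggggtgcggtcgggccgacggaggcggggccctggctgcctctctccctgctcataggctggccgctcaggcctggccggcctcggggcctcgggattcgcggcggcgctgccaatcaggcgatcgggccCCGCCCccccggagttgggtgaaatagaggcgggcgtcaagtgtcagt

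The sequences differ in base composition. The upstream one has 40.8% G and C and 3 CpG, and the downstream one has 70.8% and 27 CpG, against medians of 58.0% and 11 over 35116 RefSeq promoter stretches of the same length. The GC box occurs 2 times before the downstream start, beginning 209 and 48 bases ahead of it, and not before the upstream start. It is present in 42.6% of all such stretches. The Grainyhead-like motif AACCGGTT and its looser form AACNNGTT were found before neither start, as was the AP-1 motif TGANTCA, all searched on both strands. They are present in 0.117%, 3.0% and 6.57% of the stretches, with every AACCGGTT also counted as AACNNGTT. These letters lie in GRCh38 and were not aligned to the hg19 regions.

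Within 2 kb of the start used for KLF5, MLL3 and GRHL2 regions overlapped, and both had low folds. The pair began 1.12 kb past that start and did not cover it. Below it is called the pair at the start of the gene. The MLL3 region at 73630120 to 73630559 had its summit 1.44 kb past the start, with a fold enrichment of 4.56 and a −log10 q of 6.33. It was the weakest of the 7 by fold and ranked 195 among the 219 MLL3 regions of chromosome 13. The GRHL2 region at 73630172 to 73630949, with its summit 1.55 kb past the start, had a fold of 3.36 and a −log10 q of 2.65. The summits were 106 bp apart. No other region of either list had its summit within 2 kb of the start.

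Inside the gene, beyond 2 kb from the start used here, GRHL2 was listed 4 more times and MLL3 not at all. The RefSeq starts are 4.03 kb apart in GRCh38. If the start used here is the upstream one, the regions at 4.06 and 4.92 kb lie within 2 kb of the downstream start. By the same rule they would then be promoter regions of that start. The pair called the pair at the start of the gene would then lie more than 2 kb before the downstream start, outside its promoter class. Which RefSeq start the one used here matches was not checked across builds. A GRHL2 region at 73632807 to 73633262 had its summit 4.06 kb past the start and a fold of 4.36 (−log10 q 6.56). Those at 4.92 and 6.75 kb were weaker, with folds of 2.74 and 2.20, and −log10 q of 1.42 and 1.0, so neither reached the level that ends the MLL3 list. The one at 73639370 to 73641068, 11.3 kb into the gene, was the strongest GRHL2 region of the whole stretch. Its fold was 65.0 and its −log10 q 481, which placed it at rank 10 of 2830 on chromosome 13 and 577 of 152864 in the list.

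The strong intragenic GRHL2 site carried no MLL3 region. The nearest MLL3 summit was the one at the start of the gene, 9.85 kb away. On chromosome 13, 40 GRHL2 regions had a −log10 q ≥ 100, and 28 of them overlapped an MLL3 region. Of the 12 that did not, the intragenic site ranked 3 by fold. A missing entry in the MLL3 list is not absence of the protein, since that list has its own threshold and an unknown depth.

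**Figure D1:**
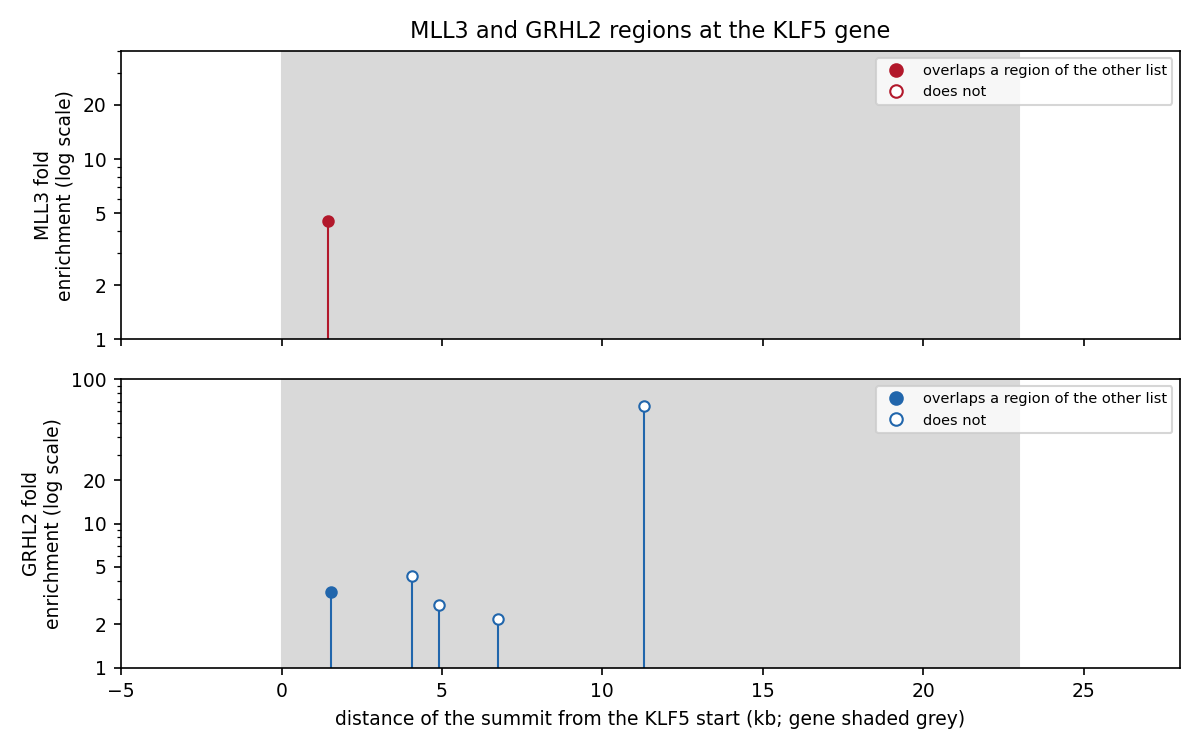
Fold enrichment (log scale) of MLL3 regions (above) and GRHL2 regions (below) against the distance of the summit from the KLF5 start in kb, with the gene shaded grey; filled points overlap a region of the other list and open points do not. MLL3 has 1 region, at 1.44 kb (fold 4.56), whereas GRHL2 has 5, of which the one at 11.3 kb (fold 65.0) stands far above the other 4 (2.20 to 4.36).

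Distal sites made up 6 of the 7 MLL3 and 23 of the 28 GRHL2 regions. Downstream of the gene lay 5 MLL3 and 13 GRHL2 regions, over 648 kb, and upstream lay 1 MLL3 and 10 GRHL2 regions, over 327 kb. Per 100 kb that is 0.772 MLL3 and 2.01 GRHL2 regions downstream, against 0.306 and 3.06 upstream. With GRHL2 regions at a −log10 q ≥ 2, the level that every MLL3 region passes, 8 were left downstream and 3 upstream, 1.23 and 0.917 per 100 kb. The upstream surplus of GRHL2 was thus made of weak regions, and 7 of its 10 had a −log10 q under 2.

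Upstream, 1 site carried both factors. A GRHL2 region of 2677 bp, the widest of the stretch, lay at 73533385 to 73536061, 94.1 kb before KLF5, with a fold of 62.7 and a −log10 q of 313. By fold it ranked directly after the intragenic site on chromosome 13, at 11 of 2830. Within it lay an MLL3 region of only 212 bp (73534721 to 73534932) with a fold of 5.16 and a −log10 q of 6.20, rank 172 of 219. Their summits were 33 bp apart. The other upstream GRHL2 regions with a −log10 q ≥ 2 were at 123 kb (73504924 to 73506053, fold 13.6, −log10 q 31.8) and 71.7 kb (73557127 to 73557574, fold 5.52, −log10 q 9.30), neither with MLL3. From 219 kb to the left edge 6 GRHL2 regions remained, with folds of 2.02 to 2.995 and a −log10 q of at most 1.13.

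Downstream, the sites of both factors lay 114, 345, 373, 375 and 623 kb from the start. The first of these had a GRHL2 region at 73742932 to 73743909 with a fold of 23.1 and a −log10 q of 118, the third strongest GRHL2 region of the stretch. The MLL3 region in it (73743164 to 73743672) had a fold of 7.99 and a −log10 q of 18.7. A second GRHL2 region followed 4.39 kb further on (73747544 to 73748275, fold 7.63, −log10 q 18.5) without MLL3. Nearer to the gene, GRHL2 regions at 41.4 kb (73669868 to 73670699) and 52.2 kb (73680991 to 73681397) had folds of 4.28 and 3.51, and neither met an MLL3 region.

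Between 73751317 and 73973043 neither list had a region. This stretch of 222 kb, from 122 to 344 kb past the start, was the longest empty one of the megabase. The next were 133 kb (490 to 622 kb past the start) and 94.5 kb upstream (219 to 124 kb before it).

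Beyond the empty stretch came 3 sites of both factors within 31.3 kb. At 345 kb, GRHL2 (73973044 to 73974060) had a fold of 15.7 and a −log10 q of 67.3, and MLL3 (73973505 to 73973772) had a fold of 5.87 and a −log10 q of 11.1. At 373 kb, GRHL2 (74002170 to 74003481) had a fold of 13.6 and a −log10 q of 39.6, and MLL3 (74002338 to 74002549) had a fold of 5.36 and a −log10 q of 6.53. At 375 kb, MLL3 (74003756 to 74004200) reached a fold of 16.8 and a −log10 q of 49.9, its highest in the megabase and rank 21 of 219 on chromosome 13. GRHL2 (74003625 to 74004296) had a fold of 4.86 and a −log10 q of 6.34 there, rank 292 of 2830. As shares of the regions on chromosome 13 these ranks are the top 9.59% for MLL3 and the top 10.3% for GRHL2. The GRHL2 list ends at a looser threshold, so these shares cannot be set against each other. At a −log10 q ≥ 2, the GRHL2 fold was below the median of 5.15 over 542 regions on the rest of the chromosome. The MLL3 fold was above the upper quartile of 9.10 over its 212 regions there. The MLL3 summits at 373 and 375 kb were 1.57 kb apart.

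Farther out, GRHL2 had a strong region alone at 488 kb (74116331 to 74117323, fold 15.5, −log10 q 66.1), with the nearest MLL3 summit 113 kb away. The GRHL2 region at 404 kb (74032671 to 74032935) was weak, with a fold of 3.32 and a −log10 q of 1.85. The outermost pair, at 623 kb, had an MLL3 region (74251463 to 74251855) with a fold of 8.33 and a −log10 q of 16.4, the second strongest MLL3 region of the 7. The GRHL2 region there (74251476 to 74252057) had a fold of 2.39 and a −log10 q of 0.757, so it did not reach a q of 0.05.

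**Figure D2:**
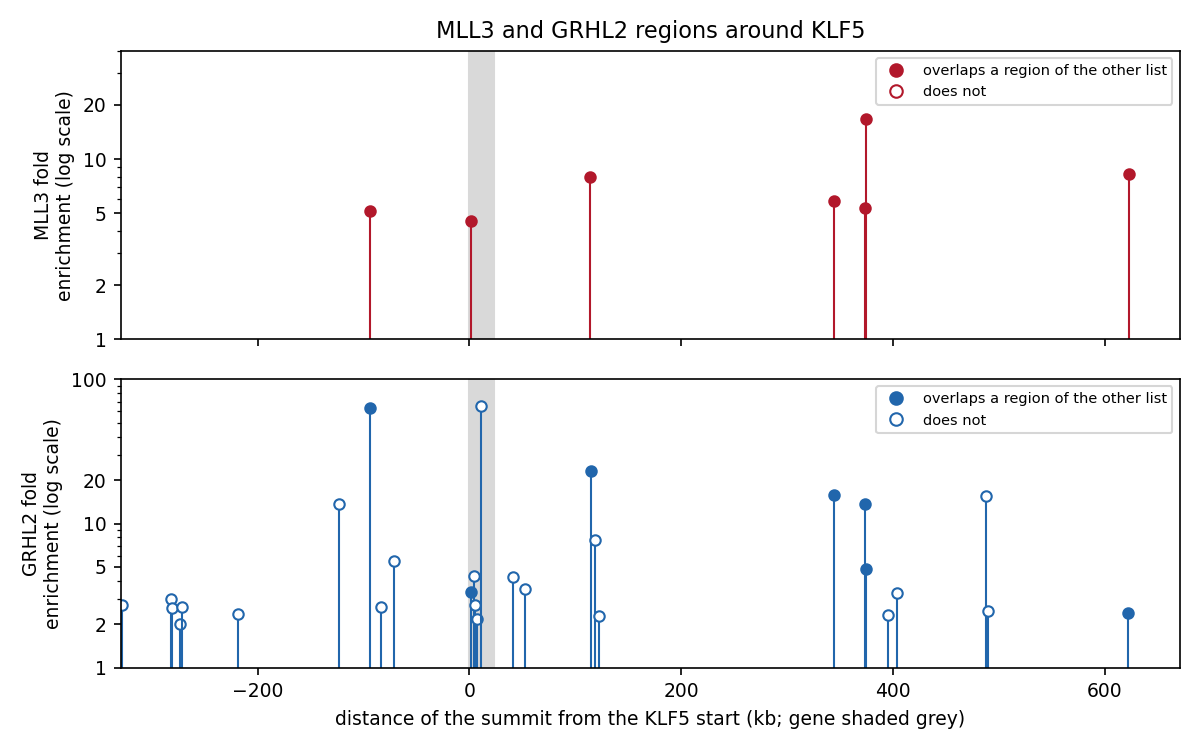
Fold enrichment (log scale) of the 7 MLL3 regions (above) and the 28 GRHL2 regions (below) against the distance of the summit from the KLF5 start in kb, with the gene shaded grey; filled points overlap a region of the other list and open points do not. The highest GRHL2 points are those at 11.3 kb (fold 65.0) and 94.1 kb upstream (fold 62.7), the highest MLL3 point is at 375 kb (fold 16.8), and no region lies between 122 and 344 kb.

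All 7 MLL3 regions of the stretch overlapped a GRHL2 region (exact Clopper-Pearson 95% interval 59.0 to 100%). On the rest of chromosome 13, 165 of 212 did, or 77.8% (71.6 to 83.2%), so the intervals overlap and 7 regions are too few to tell these shares apart. With GRHL2 regions at a −log10 q ≥ 2, 6 of 7 overlapped in the stretch, against 116 of 212 (54.7%, 47.8 to 61.5%). These intervals cover the counting of regions only and take regions as independent.

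In the other direction, 7 of the 28 GRHL2 regions met MLL3, or 25% (10.7 to 44.9%), against 5.89% (5.05 to 6.83%) of 2802 on the rest of chromosome 13. The stretch also held a larger share of strong regions: 14 of the 28 had a −log10 q ≥ 2, or 50% (30.6 to 69.4%), against 19.3% on the rest of the chromosome. Among GRHL2 regions past that level, 6 of 14 met MLL3 (42.9%, 17.7 to 71.1%), against 21.4% (18.0 to 25.1%) of 542, and here the intervals overlap. Of the 8 that did not meet MLL3, folds ran from 3.51 to 65.0 with a median of 6.58.

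Within the 7 pairs, the summits lay 25 to 187 bp apart. Pairs were formed by overlap, which by itself limits these gaps. The gaps between summits were 25 bp at 373 kb, 33 bp upstream, 40 bp at 345 kb, 48 bp at 375 kb, 106 bp at the start of the gene, 125 bp at 114 kb and 187 bp at 623 kb. Their median was 48 bp, against 76 bp over 165 pairs on the rest of chromosome 13, and 4 of 7 were within 100 bp (57.1%, 18.4 to 90.1%), against 60.6% (52.7 to 68.1%). The MLL3 region lay wholly inside the GRHL2 region in 5 of 7 pairs. In every pair the GRHL2 region was the wider (582 to 2677 bp, against 212 to 509 bp for MLL3), which by itself favours this. The share over the pairs on the rest of chromosome 13 is not given here, so it is not read as a trait of the stretch. In the other 2, at the start of the gene and at 623 kb, 88.2% and 96.7% of the MLL3 region was overlapped.

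**Figure D3:**
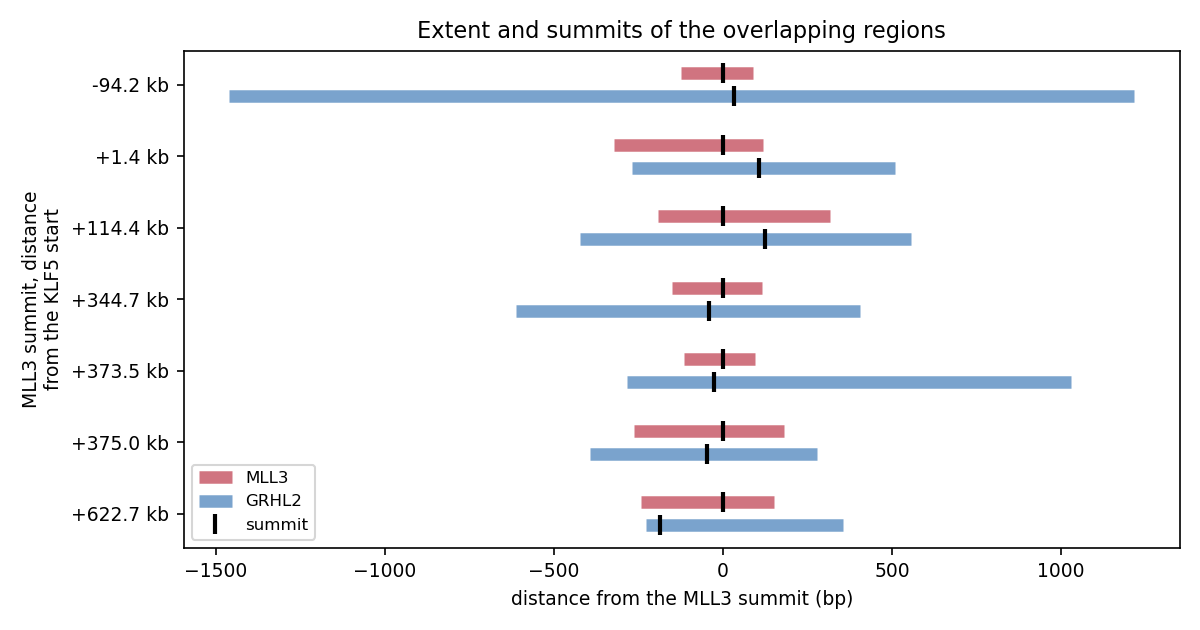
Extent of the overlapping MLL3 (red) and GRHL2 (blue) regions in bp from the MLL3 summit, for the 7 MLL3 regions in order of their distance from the KLF5 start, with summits as black ticks. In 5 rows the MLL3 bar lies within the GRHL2 bar, and the summits are 25 to 187 bp apart.

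The pair with the highest GRHL2 fold and the pair with the highest MLL3 fold were different sites. By GRHL2 fold the order was upstream (62.7), 114 kb (23.1), 345 kb (15.7), 373 kb (13.6), 375 kb (4.86), the start of the gene (3.36) and 623 kb (2.39). By MLL3 fold it was 375 kb (16.8), 623 kb (8.33), 114 kb (7.99), 345 kb (5.87), 373 kb (5.36), upstream (5.16) and the start of the gene (4.56). Both orders come from 1 library each, so how far neighbours in them differ beyond replicate error is unknown. The start of the gene was last or next to last in both. Across the 7 pairs Spearman rho of the folds was -0.25, too few pairs to read a relation from, against 0.29 over the 165 pairs on the rest of chromosome 13.

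**Figure D4:**
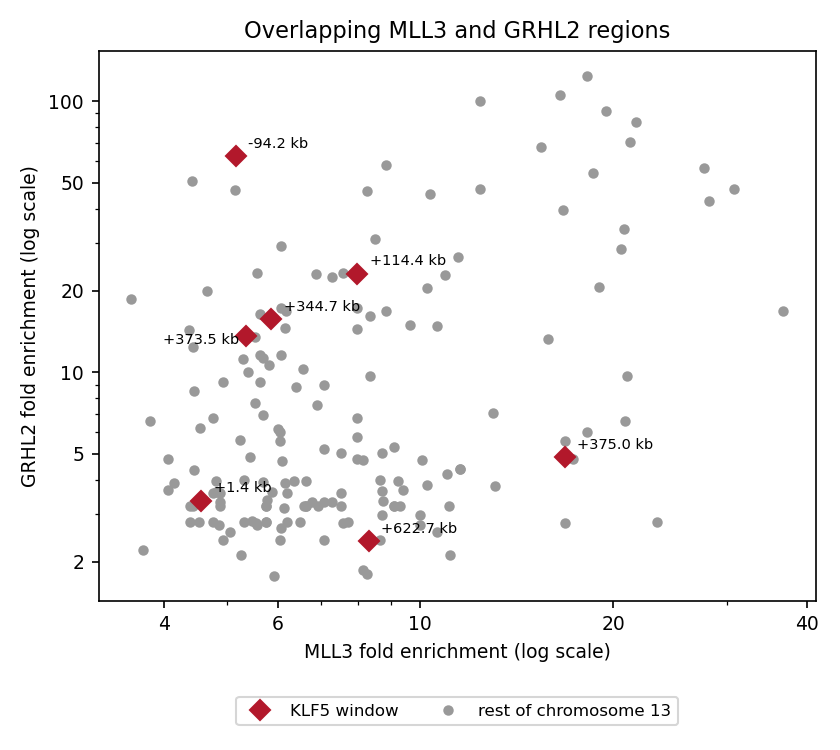
Fold enrichment of GRHL2 against that of MLL3 (both on log scales) for the 7 overlapping pairs around KLF5, marked with their distance from the gene's start, and for the 165 pairs on the rest of chromosome 13. The pair 94.2 kb upstream sits high on the GRHL2 axis (62.7) and low on the MLL3 axis (5.16). The pair at 375 kb has the highest MLL3 fold of the 7 (16.8) and a GRHL2 fold of 4.86, close to the median of 4.80 over the grey points.

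The stretch held more MLL3 regions than most of the chromosome. It had 7 per Mb (exact Poisson 95% interval 2.81 to 14.4), against 2.24 per Mb (1.95 to 2.57) over the 94.5 Mb of the rest of chromosome 13, a ratio of 3.12. Among 93 other windows of 1 Mb laid end to end along the chromosome, 3 held more MLL3 regions, 4 as many and 86 fewer, with a median of 1. Strong MLL3 regions were not in clear excess: with a −log10 q ≥ 20 there was 1 (0.0253 to 5.57 per Mb), against 0.487 per Mb on the rest of the chromosome, and 11 other windows held more and 19 as many. Chromosome 13 is poor in MLL3 regions. All other chromosomes had 4.12 per Mb, and those without chromosomes 1 and 9, which hold tracts crowded with regions, had 3.55, both inside the interval of the stretch.

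GRHL2 regions were about as dense there as on the rest of chromosome 13 over the whole list, and denser once weak regions were left out. The 28 regions per Mb (18.6 to 40.5) stood against 29.6 (28.6 to 30.76) on the rest of the chromosome, a ratio of 0.945, and 37 of the 93 other windows had more. At a −log10 q ≥ 2 there were 14 per Mb (7.65 to 23.5), against 5.73 (5.26 to 6.24), and at a −log10 q ≥ 5 there were 12 (6.20 to 21.0), against 3.15 (2.80 to 3.53). At a −log10 q ≥ 20 the count was 7 (2.81 to 14.4), against 1.34 per Mb (1.12 to 1.60), a ratio of 5.21. No other window had more at that level and 1 had as many. Regions with a −log10 q ≥ 100 were 3 of the 28, or 10.7%, against 1.32% of those on the rest of the chromosome, no window had more than 3, and 3 other windows had 3. Against all other chromosomes, which are richer in GRHL2 regions than chromosome 13, the ratios were lower. The ratio was 0.54 over the whole list (51.9 per Mb elsewhere), 1.37 at a −log10 q ≥ 2 (10.2 per Mb elsewhere, inside the interval of the stretch), 3.40 at 20 (2.06 per Mb elsewhere) and 4.11 at 100 (0.73 per Mb, inside the interval of 0.619 to 8.77 around the 3 regions).

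The windows on either side held fewer regions. The megabase after it had 1 MLL3 and 5 GRHL2 regions with a −log10 q ≥ 2, and the megabase before it had 1 and 0. The second megabase after it had 4 and 11, 3 of them with a −log10 q ≥ 100. As many MLL3 regions together with as many GRHL2 regions as around KLF5 were held by 2 of the 93 other windows when GRHL2 was counted at a −log10 q ≥ 2, by 1 at a −log10 q ≥ 20 and by 0 at a −log10 q ≥ 100. The levels of 20 and 100 were chosen after the data had been seen.

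**Figure D5:**
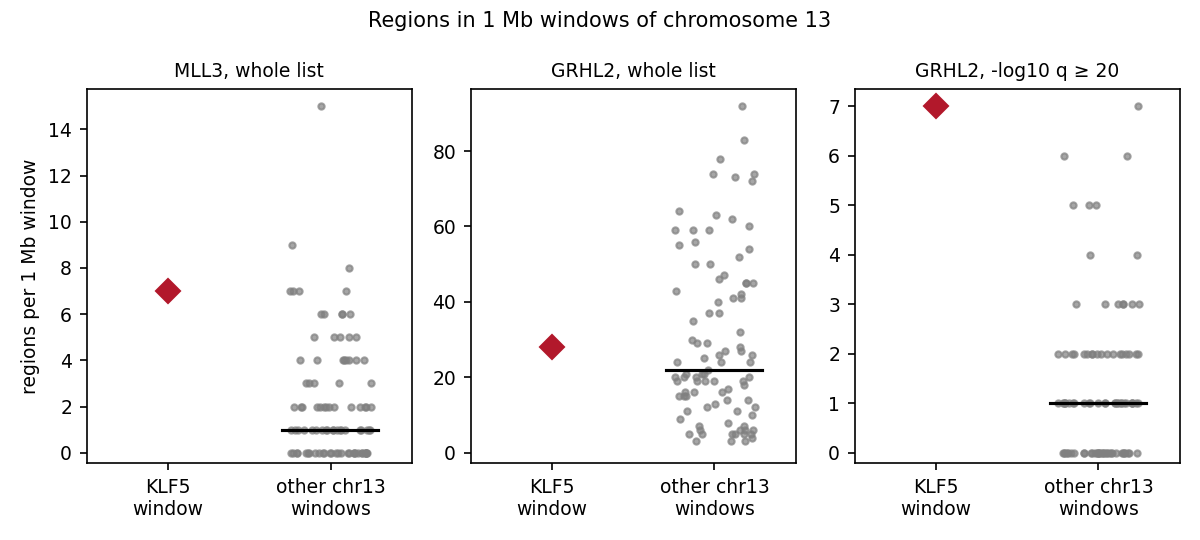
Regions per 1 Mb window of chromosome 13 for MLL3, for the whole GRHL2 list and for GRHL2 regions with a −log10 q ≥ 20, with the KLF5 window as a red diamond at left, the 93 other windows as grey points at right and their median as a black line. The KLF5 window has 7, 28 and 7 regions, and the medians of the others are 1, 22 and 1.

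Single regions were not stronger throughout. The 7 MLL3 regions had a median fold of 5.87 (range 4.56 to 16.8), against 6.58 on the rest of chromosome 13 (quartiles 5.38 and 9.10). The 28 GRHL2 regions had a median fold of 3.34 (quartiles 2.57 and 9.12), against 2.80 (2.40 and 3.20), and a median width of 490 bp, against 330 bp. At a −log10 q ≥ 2 the GRHL2 medians were 10.6 in the stretch and 5.15 elsewhere on the chromosome. The smallest width in the list, 265 bp, was held by 5 of the 28 regions and by 944 of the 2802.

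Whether sites stood alone depended on the joining distance. When regions of either list with a −log10 q ≥ 2 were joined wherever neighbouring summits were within 10 kb, the stretch gave 11 groups, of which 8 had a single site, counting overlapping regions as 1 site. With 25 kb, 4 of 9 groups had a single site. At 10 kb, the group with the most sites, 3, spanned 10949 bp (73630120 to 73641068). It ran from the pair at the start of KLF5 to the strong GRHL2 site inside the gene. The others with more than 1 were those at 114 kb (73742932 to 73748275, 2 sites) and at 373 kb (74002170 to 74004296, 2 sites). The last, of 2127 bp, was the only group with 2 MLL3 regions, which together spanned 1.86 kb. On the rest of chromosome 13, joined at 10 kb, 72 of 533 groups had at least 2 sites and 17 had at least 2 MLL3 regions. There 19 groups had at least 3 sites, and the most was 6. With 5 kb, no group of the KLF5 stretch had more than 2 sites.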

How the data were processed

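Both libraries were made from KYSE510 cells, 1 per antibody. Per the submitters' processing notes, BWA, Picard, MACS2 and deepTools and the build hg19 were used, with no version or setting stated in the sources used here. Deposited lists give each region a fold enrichment (a ratio over local background), a −log10 p-value, a −log10 q-value, a score and a summit, all by the authors. No counts are given, so depth is unknown. Only regions of the assembled chromosomes were used, and coordinates are 1-based in hg19. From these values, Python 3.11.15 (pandas 2.3.3, scipy 1.17.1) computed overlaps of at least 1 bp, counts by class (promoter within 2 kb of the KLF5 start, gene body, distal), densities, ranks and groups joined at 10 kb. The rest of chromosome 13 runs from its first to its last region, without the stretch described. Overlap finding was checked on planted intervals. Intervals at 95% are exact Clopper-Pearson or exact Poisson and cover counting error only. The stretch, classes and motifs were chosen with earlier results of these data known. Regions named are all 7 MLL3 regions, the 15 GRHL2 regions of highest −log10 q and those of the gene with a −log10 q ≥ 2. The GRHL2 region at 623 kb and the 2 weaker ones in the gene were added after their values were seen. The gene's place was given beforehand to the kb, and gene order, start sites and promoter letters come from RefSeq tables in GRCh38.p14, whose coordinates were not combined with hg19. Only the distance between the start sites was set beside hg19 distances. Without an hg19 sequence or annotation, regions were not read for motifs or assigned to other genes. Alternatives were stricter thresholds, other overlap rules, other class widths and joining distances, and other comparison chromosomes.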

Additional observations from a re-analysis of the deposited data

How the results depend on the processing

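The MLL3 density ratio of 3.12 over the rest of chromosome 13 ran between 1.70 (against all other chromosomes) and 3.76 (−log10 q ≥ 5), within its interval of 1.25 to 6.43. The GRHL2 ratio of 0.945 depended on the threshold. It was 2.44 at a −log10 q ≥ 2, 3.81 at 5, 3.07 at a fold of at least 5, 5.21 at a −log10 q ≥ 20 and 7.67 at 100. Against all other chromosomes it was 0.54, and 0.568 without chromosomes 1 and 9, and with all other chromosomes it was 1.37, 3.40 and 4.11 at a −log10 q ≥ 2, 20 and 100. The last 2 comparisons and the thresholds of 20 and 100 were chosen after seeing the data. With summits within 100 bp instead of overlap, 57.1% of the MLL3 regions were shared. The median GRHL2 fold of 3.34 was 10.6 at a −log10 q ≥ 2 and 13.6 at 5. A promoter half-width of 1 kb left 0 MLL3 and 0 GRHL2 regions in the promoter class and put 1 MLL3 region in the gene body, and 5 kb put 3 GRHL2 regions in the promoter and left 2 in the gene body. At a −log10 q ≥ 2 the gene body had 2 and the distal class 11 GRHL2 regions. Joining at 25 kb gave 9 groups, 5 of them with at least 2 sites, in place of 11 with 3. The unknown read depth is a limit for both lists. No paired analysis was possible because there was only 1 library per antibody.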
